A study of Bos taurus with 38 samples.

Results

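The transcripts of single cattle oocytes were compared with those of the cumulus cells that surrounded each of them, in the 9 complexes that kept the blue of brilliant cresyl blue (BCB positive). An oocyte that keeps the dye is taken to have completed its growth. The members are the oocyte library and the cumulus library of complexes 17, 19, 24, 69, 70, 71, 72, 73 and 74, which makes 18 of the 38 libraries and 9 of the 19 complexes of the study, the other 10 complexes being BCB negative. Of 27607 Ensembl gene identifiers, the 13645 with more than 2 CPM (counts per 1000000 counts of a library) in at least 9 of the 18 libraries were analysed. The complexes were aspirated from antral follicles of abattoir ovaries, and the cumulus cells were taken off with trypsin and pipetting before each oocyte was washed and lysed alone. All 18 samples shared this handling, and the labels give no other treatment. Age and breed are not given in the labels, nor is the animal that each complex came from, so that p-values measure the spread between complexes. Each cumulus sample pooled the cells of 1 complex, in a number that is not given in the sources used here.

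The cumulus-oocyte complex is a tissue of 2 compartments that develop together. The oocyte builds the zona pellucida, stores mRNA for the first divisions of the embryo and is held in meiotic arrest, while the cumulus cells, a layer of granulosa cells, take up glucose, respond to follicle stimulating hormone and make inhibins, steroids and matrix. Thin projections of the cumulus cells cross the zona and end on the oocyte in gap junctions, through which small molecules pass. The oocyte in turn sends growth factors of the TGF-beta family to the cumulus cells.

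Library totals ran from 8886070 to 26908499 counts in oocytes (median 14370653) and from 3585944 to 10430148 in cumulus cells (median 5853816). CPM is a share of such a total, and in shares neither fewer cells nor less RNA per cell can be told from a smaller part of the RNA. It carries no transcript length, and it was compared between libraries for the same gene and not between genes. On log2(CPM + 1) the oocytes correlated with each other at 0.921 to 0.989 and the cumulus samples at 0.947 to 0.980, whereas an oocyte and its own cumulus cells correlated at 0.240 to 0.438 (median 0.277) and an oocyte and the cumulus cells of another complex at 0.214 to 0.422 (median 0.274). These coefficients are descriptions over genes, which are not independent replicates, and the libraries share their preparation.

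The labels were checked against marker genes first. Of 14 oocyte markers, 3 have a symbol in the files used, namely ZP2, ZP3 and DAZL, and they summed to 3001 to 5095 CPM in oocytes and to 0.108 to 1.82 CPM in cumulus cells. Of 14 cumulus markers, 13 have a symbol, and they summed to 14097 to 33754 CPM in cumulus cells and to 322 to 3452 CPM in oocytes. The oocyte of complex 72 held the 3452 CPM, and the median oocyte 430.0 CPM. BMPR1B, 1 of the 13, was higher in oocytes and made up 169 to 224 CPM of the oocyte sums. These sums are thus not a measure of cumulus transcripts alone. Every library thus carried the markers of its label, and the oocyte library of complex 72 also carried more cumulus markers than the others. It is retained, and folds that move by over 1.5 times without it and complexes 70 and 74, the next highest, are given both ways.

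Transcript abundance differed between the compartments over most of the transcriptome. With each oocyte set against its own cumulus cells, 11416 of 13645 genes differed at an adjusted p under 0.01, which is 83.7%, in edgeR's quasi-likelihood test with Benjamini-Hochberg adjustment (n = 9 pairs here and throughout). Higher in oocytes were 5966 genes, or 43.7%, and higher in cumulus cells were 5450 genes, or 39.9%. Differences were large, since 6620 genes, or 48.5%, passed 4-fold as well, 3440 of them higher in oocytes and 3180 higher in cumulus cells. Which of these was the larger depended on the filter, with 4829 and 5298 where no filter was set. The quartiles of the log2 fold change, oocyte minus cumulus cells, lay at -1.84 and 2.02 around a median of 0.12, and its range was -9.46 to 14.06. Each log2 fold given below is this difference with its standard error (SE). With library totals in place of TMM scaling the median moved to 0.32, so that folds near 1 depend on the scaling. In 10575 of the genes that differed, all 9 complexes had the same direction, and in 9364 genes, or 68.6%, the ranges of the compartments did not overlap.

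**Figure D1:**
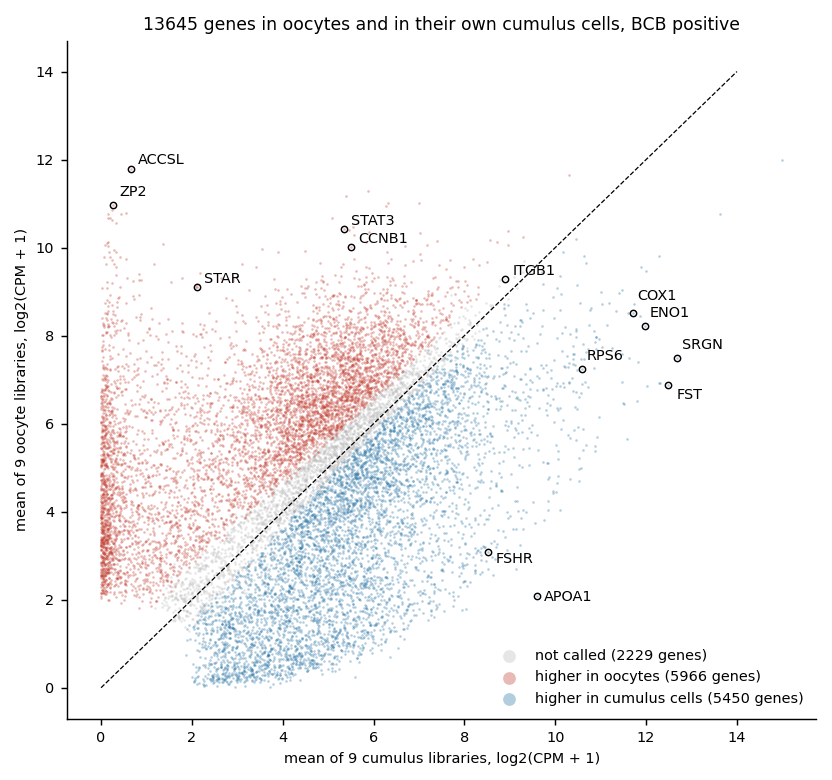
Mean log2(CPM + 1) over the 9 cumulus libraries (horizontal axis) and over the 9 oocyte libraries (vertical axis) for each of 13645 genes. Red points are the 5966 genes higher in oocytes, blue points the 5450 genes higher in cumulus cells and grey points the 2229 genes past neither threshold, and the coloured clouds spread far to either side of the diagonal that the grey points follow.

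Part of this count follows from the rule on which genes were kept. Of the 13645 genes, 1945 were above 2 CPM in fewer than 5 cumulus libraries and 1470 in fewer than 5 oocyte libraries, and such genes entered through the compartment where they were high. At the extremes, 1441 genes were above 2 CPM in all 9 oocytes and in 0 cumulus libraries, and 515 were above 2 CPM in all 9 cumulus libraries and in 0 oocytes. There were 94 genes without a count in any cumulus library and 0 without a count in any oocyte library. A symbol was found for 4785 of the 13645 genes. Of these, 1850 were higher in oocytes, or 38.7%, and 2096 were higher in cumulus cells, or 43.8%, with a median log2 fold change of -0.14. The lists below hold only genes with a symbol, and their counts are to be read against these shares.

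Oocyte libraries spread their counts over more genes. The number of genes above 2 CPM was 12301, 12800 and 13427 in oocytes (lowest, median and highest, an order used from here on) and 12154, 12307 and 12588 in cumulus cells, and it was higher in the oocyte of all 9 complexes. The 10 genes with the most counts took 2.13%, 2.64% and 3.59% of an oocyte library and 6.28%, 7.70% and 12.02% of a cumulus library. For the 100 leading genes the shares were 10.4%, 11.9% and 12.5% in oocytes against 22.4%, 24.7% and 30.4% in cumulus cells. Neither share overlapped between the compartments. Genes for the 13 proteins encoded by mitochondrial DNA took 0.0745%, 0.133% and 0.498% of oocyte counts and 0.966%, 1.38% and 2.86% of cumulus counts. Cytosolic ribosomal protein genes, 16 of which have a symbol, took 0.111%, 0.169% and 0.3002% in oocytes and 1.10%, 1.63% and 1.997% in cumulus cells. In each of these 5 measures the p was 0.00391, the smallest that 512 sign changes of 9 pairs allow in the two-sided exact permutation test, and 0.00434 after adjustment over 10 measures. Genes detected by 1 count or more were more numerous by 719 in oocytes on average and in 8 of 9 complexes, a difference that did not pass (exact permutation p = 0.0938). With both libraries of a pair thinned to the same total this last difference turned to -451.

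**Figure D2:**
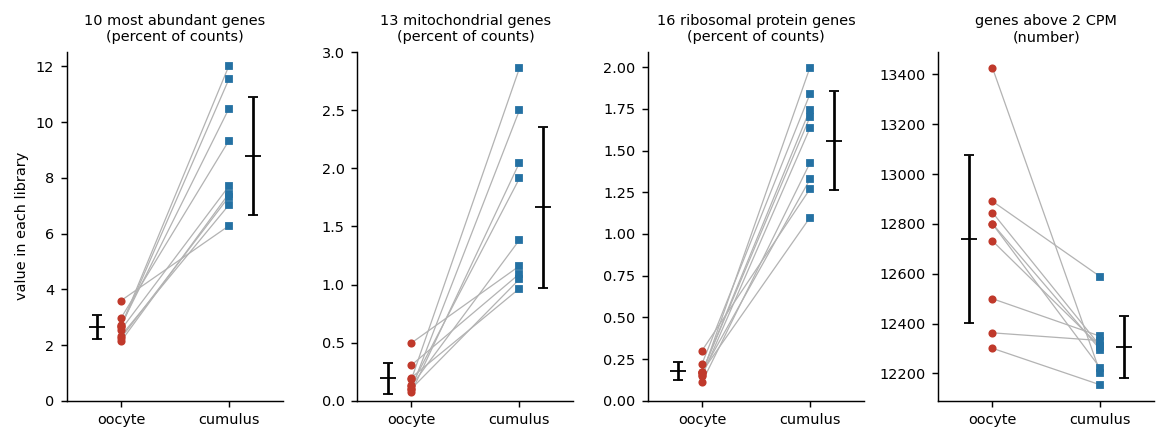
Values of 4 library measures in the oocyte (left) and the cumulus cells (right) of the 9 complexes, each line joining the libraries of 1 complex, with the mean and SD beside them. The lines for the 10 leading genes, the mitochondrial genes and the ribosomal protein genes all run up towards the cumulus cells, and the line for genes above 2 CPM runs down in each complex.

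Genes of the egg coat gave a list median log2 fold change of 13.13. ZP2 (ENSBTAG00000011504), a protein of the zona pellucida that sperm bind, had 1591, 2013 and 2607 CPM in oocytes and 0, 0 and 0.912 CPM in cumulus cells. It had 9 counts in the 9 cumulus libraries together, and the ratio of the summed shares was 13239 (log2 fold 13.39 ± 0.53 SE, edgeR adjusted p = 1.21e-10). ZP3 (ENSBTAG00000014834), its partner in the zona filaments, had 1379, 1781 and 2444 CPM in oocytes and 0, 0.219 and 0.456 CPM in cumulus cells and was higher in oocytes by 13.13 ± 0.37 SE on the log2 scale (edgeR adjusted p = 1.15e-11). CD9, a membrane protein of the oocyte that is needed for sperm fusion and is also made by many other cells, went the other way, with 3.55, 12.8 and 16.7 CPM in oocytes and 22.1, 27.0 and 44.8 CPM in cumulus cells (log2 fold -1.69 ± 0.22 SE, edgeR adjusted p = 7.02e-06). Of 8 genes on the list of zona and sperm-binding genes these 3 have a symbol, so that 2 were higher in oocytes and 1 was higher in cumulus cells.

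Maternal effect and germline genes with a symbol were all higher in oocytes, 2 of 19 and 2 of 11 list members. TLE6, part of the subcortical maternal complex, had 463, 559 and 679 CPM in oocytes and 1.94, 3.42 and 4.34 CPM in cumulus cells, which is 152-fold higher in oocytes (log2 fold 7.25 ± 0.15 SE, edgeR adjusted p = 4.56e-12). ZAR1L, a relative of the maternal mRNA-binding protein ZAR1, had 668, 741 and 923 CPM in oocytes and 4.10, 5.30 and 16.1 CPM in cumulus cells (log2 fold 6.63 ± 0.26 SE, edgeR adjusted p = 1.26e-10). Neither gene was absent from cumulus libraries, but their ranges lay far apart. TBPL2, the TATA-binding protein relative that oocytes use for transcription, had 25.3, 34.6 and 66.2 CPM in oocytes and 0, 0.0959 and 0.328 CPM in cumulus cells (log2 fold 8.10 ± 0.38 SE, edgeR adjusted p = 5.37e-10). TAF4B, a subunit of TFIID of the germline, was closer, with 20.9, 29.6 and 42.2 CPM in oocytes and 4.18, 10.1 and 15.1 CPM in cumulus cells (log2 fold 1.52 ± 0.22 SE, edgeR adjusted p = 2.10e-05).

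The 10 largest differences towards oocytes among named genes of at least 50 CPM were led by genes near 0 in cumulus cells. SAXO1, a microtubule-associated protein, had 492, 522 and 656 CPM in oocytes and 0, 0 and 0.192 CPM in cumulus cells, and its 2 cumulus counts gave a ratio of 16273 with an exact 95% counting interval of 4505 to 134375. TCL1A, a coactivator of the AKT kinase, had 76.7, 102 and 132 CPM in oocytes and 0, 0 and 0 CPM in cumulus cells, at least 2130-fold higher in oocytes when the 9 cumulus libraries are given 3 counts together. NOTO, a homeobox gene, had 51.0, 87.1 and 116 CPM in oocytes and 0, 0 and 0 CPM in cumulus cells, at least 1643-fold higher on the same floor. These intervals cover counting error only, since reads without molecular identifiers are not independent molecules. ACCSL, a relative of a plant ethylene enzyme with no settled role in mammals, had 2848, 3215 and 4728 CPM in oocytes and 0, 0.265 and 3.19 CPM in cumulus cells, and NR3C2, the mineralocorticoid receptor, had 308, 367 and 434 CPM in oocytes and 0, 0 and 0.342 CPM in cumulus cells. Both had cumulus counts that were highest in 1 library, complex 73 for ACCSL and complex 74 for NR3C2, without which their log2 fold changes moved from 12.95 to 13.69 and from 12.04 to 12.77. NEFL, the light neurofilament, varied widely between oocytes, with 31.6, 266 and 663 CPM in oocytes and 0, 0 and 0.188 CPM in cumulus cells and a ratio of 8816 (2440 to 72799). ZGLP1, a zinc finger protein of female germ cells, had 172, 237 and 311 CPM in oocytes and 0, 0 and 0.228 CPM in cumulus cells and a ratio of 6986 (1934 to 57685). TTC24, a tetratricopeptide protein, had 72.2, 136 and 232 CPM in oocytes and 0, 0 and 0.265 CPM in cumulus cells and a ratio of 7987 (1433 to 315491). Without 1 complex the fitted values of SAXO1 (15.51 without 71), ZP2 (14.01 without 73), NEFL (13.22 without 69), TBPL2 (8.68 without 70), ZGLP1 (12.77 without 73) and TTC24 (13.47 without 19) also moved by over 1.5-fold, each up.

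**Figure D3:**
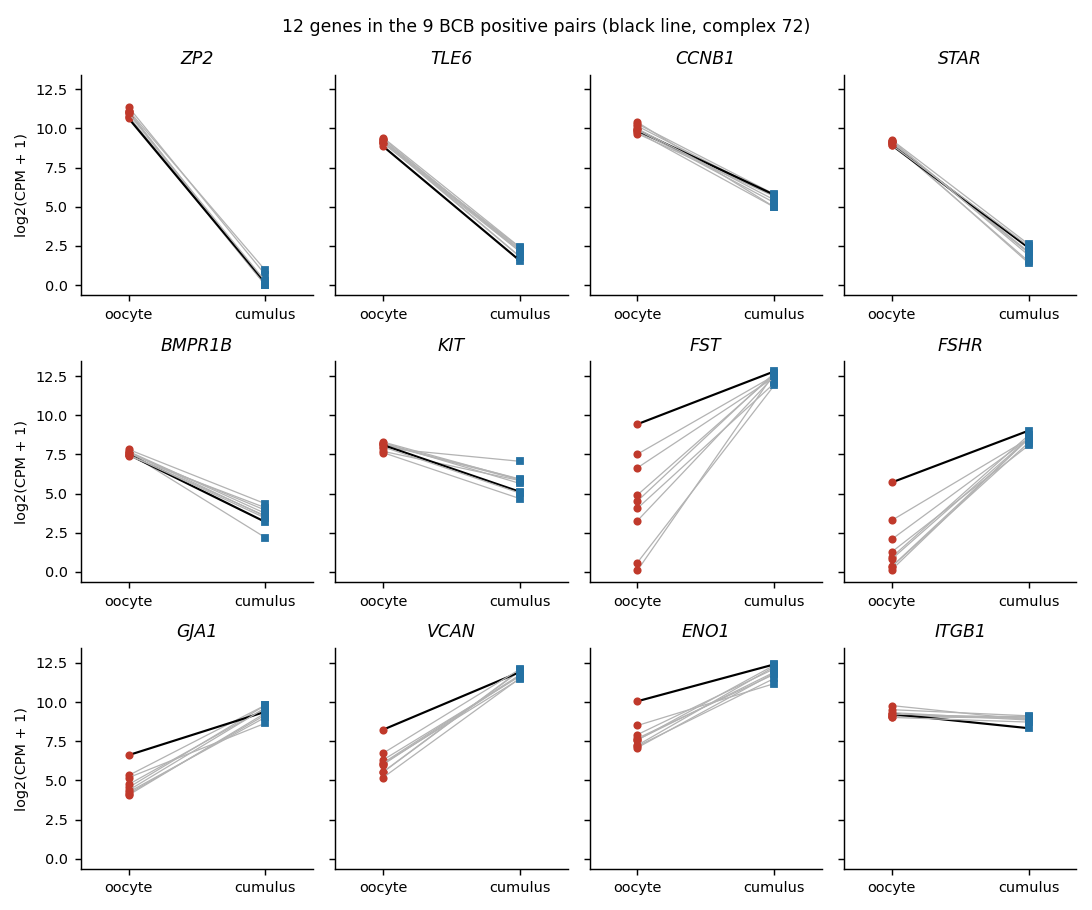
CPM on a log axis in the oocyte and in the cumulus cells of each complex for 12 genes, each line joining the libraries of 1 complex and the black line marking complex 72. ZP2, TLE6, CCNB1, STAR, BMPR1B and KIT slope down towards the cumulus cells, FST, FSHR, GJA1, VCAN and ENO1 slope up, and the lines of ITGB1 cross.

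Genes for the storage and timed use of mRNA lay on both sides. The oocyte keeps mRNA silent by shortening its poly(A) tail and later lengthens it for translation, and 8 of 22 genes on this list have a symbol. Higher in oocytes were 5, higher in cumulus cells were 2, and PUM2 passed in neither direction (log2 fold change 0.31), at a list median of 2.32. CPEB1, which binds the element for tail lengthening, had 545, 724 and 802 CPM in oocytes and 29.1, 47.1 and 73.3 CPM in cumulus cells (log2 fold 3.71 ± 0.16 SE, edgeR adjusted p = 2.84e-10). YBX2, the germ cell protein that coats stored mRNA, had 349, 429 and 473 CPM in oocytes and 0, 0.0959 and 0.456 CPM in cumulus cells and was higher by 10.69 ± 0.34 SE (edgeR adjusted p = 2.24e-11), with 14.82 in complexes 17 to 24 alone. CNOT6L, a deadenylase of the oocyte, had 163, 363 and 412 CPM in oocytes and 50.8, 66.5 and 84.0 CPM in cumulus cells (log2 fold 2.08 ± 0.17 SE, edgeR adjusted p = 6.39e-08). All 9 oocytes were above all 9 cumulus libraries in these 3 genes. DDX6, a helicase of P-bodies, was higher in cumulus cells, with 203, 264 and 289 CPM in cumulus cells and 42.8, 56.4 and 71.6 CPM in oocytes (log2 fold -2.35 ± 0.12 SE, edgeR adjusted p = 8.59e-10). So was ZFP36L2, which binds AU-rich elements for decay, with 86.5, 251 and 399 CPM in cumulus cells and 18.2, 30.3 and 38.4 CPM in oocytes (log2 fold -3.07 ± 0.27 SE, edgeR adjusted p = 2.21e-07).

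DAZL, an RNA-binding protein of germ cells, was uneven between oocytes. It had 5.22, 30.8 and 229.6 CPM in oocytes and 0, 0.333 and 1.06 CPM in cumulus cells, and the oocyte of complex 70 held the highest value while the other 8 oocytes lay at 95.04 CPM or below. Its log2 fold change of 6.58 ± 0.72 SE (edgeR adjusted p = 2.92e-06) was 5.94 without complex 70 and 7.43 without complex 71. The direction was the same in 9 of 9 complexes.

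The transcripts of the meiotic division machinery were abundant in oocytes. Of 24 list members 6 have a symbol, 5 of them were higher in oocytes and FZR1, an activator of the anaphase-promoting complex, did not pass (0.27), with a list median of 1.49. CCNB1, the cyclin B1 that turns on CDK1 for entry into division, had 809, 984 and 1341 CPM in oocytes and 30.4, 49.6 and 54.8 CPM in cumulus cells and was 20.2-fold higher in oocytes (log2 fold 4.34 ± 0.15 SE, edgeR adjusted p = 4.41e-11). PLK1, the polo kinase of the spindle, had 391, 486 and 683 CPM in oocytes and 31.0, 80.7 and 109.8 CPM in cumulus cells (log2 fold 2.57 ± 0.19 SE, edgeR adjusted p = 2.76e-08). MAD2L1, of the spindle checkpoint, had 94.8, 149 and 204 CPM in oocytes and 16.7, 36.8 and 72.5 CPM in cumulus cells (log2 fold 1.83 ± 0.23 SE, edgeR adjusted p = 5.15e-06). In each of these 3 genes the lowest oocyte exceeded the highest cumulus library.

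Recombination genes act in the fetal ovary, and both list members with a symbol (of 17) were still above their cumulus level. MSH5 had 59.6, 66.4 and 105 CPM in oocytes and 2.23, 5.03 and 7.01 CPM in cumulus cells (log2 fold 3.74 ± 0.21 SE, edgeR adjusted p = 2.40e-09). Its partner in the crossover clamp, MSH4, had 3.63, 5.29 and 7.79 CPM in oocytes and 0, 0.323 and 1.51 CPM in cumulus cells (log2 fold 3.32 ± 0.49 SE, edgeR adjusted p = 2.56e-05). In the piRNA pathway, which silences transposons in germ cells, 3 of 17 members have a symbol. HENMT1, the methyltransferase of piRNA ends, had 19.4, 27.6 and 48.1 CPM in oocytes and 0.767, 2.55 and 4.18 CPM in cumulus cells (log2 fold 3.41 ± 0.30 SE, edgeR adjusted p = 1.50e-07). PIWIL2, a PIWI protein, had 13.1, 22.8 and 33.1 CPM in oocytes and 0.684, 1.51 and 3.20 CPM in cumulus cells (log2 fold 3.30 ± 0.29 SE, edgeR adjusted p = 1.51e-07). TDRD6, a tudor protein, was higher in cumulus cells in 8 of 9 complexes, with 2.73, 8.37 and 16.5 CPM in cumulus cells and 0.712, 3.15 and 3.83 CPM in oocytes (log2 fold -2.22 ± 0.32 SE, edgeR adjusted p = 2.20e-05), so that the list divides 2 to 1.

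Among genes of DNA methylation and oocyte chromatin, 3 of 18 have a symbol and all were higher in oocytes. TET3, which oxidises 5-methylcytosine in the zygote, had 34.3, 129 and 219 CPM in oocytes and 2.74, 4.38 and 7.17 CPM in cumulus cells and differed by 4.48 ± 0.34 SE (edgeR adjusted p = 5.65e-08). DNMT1, the maintenance methyltransferase, had 354, 459 and 538 CPM in oocytes and 111, 147 and 173 CPM in cumulus cells (log2 fold 1.45 ± 0.11 SE, edgeR adjusted p = 5.73e-08). EHMT2, a histone H3 lysine methyltransferase, had 116, 135 and 166 CPM in oocytes and 72.6, 88.5 and 121 CPM in cumulus cells, with overlapping ranges, and its 0.41 ± 0.11 SE (edgeR adjusted p = 0.00287) was lost without complex 73, without complexes 70, 72 and 74, in the thinned libraries and in complexes 17 to 24 alone.

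The named genes that took the most oocyte counts, chosen by their share of the counts and not by a level per length, included general cell genes as well. ACCSL, ZP2 and ZP3 were among them, with values given above. UBB, a polyubiquitin gene, had 2115, 3341 and 4266 CPM in oocytes and 955, 1230.2 and 1699 CPM in cumulus cells (log2 fold 1.16 ± 0.19 SE, edgeR adjusted p = 7.82e-05). Ubiquitin repeats are alike between genes, so that its reads are uncertain. EZR, the ezrin that ties actin to the membrane of microvilli, had 1669, 1975 and 2688 CPM in oocytes and 79.4, 129 and 155 CPM in cumulus cells (log2 fold 3.81 ± 0.16 SE, edgeR adjusted p = 1.84e-10). STAT3, a transcription factor of cytokine signalling, had 1166, 1372 and 1663 CPM in oocytes and 29.7, 39.0 and 59.6 CPM in cumulus cells and was 30.2-fold higher in oocytes (log2 fold 4.92 ± 0.15 SE, edgeR adjusted p = 1.62e-11). ANKRD17, an ankyrin repeat protein, had 913, 1283 and 1522 CPM in oocytes and 90.7, 131 and 159 CPM in cumulus cells (log2 fold 3.11 ± 0.14 SE, edgeR adjusted p = 4.15e-10). WAC, an adaptor of histone ubiquitination, had 1009, 1108 and 1252 CPM in oocytes and 142, 171 and 193 CPM in cumulus cells (log2 fold 2.55 ± 0.11 SE, edgeR adjusted p = 2.40e-10). TMSB4X, the actin-binding thymosin, had 839, 1203 and 1339 CPM in oocytes and 269, 387 and 465 CPM in cumulus cells (log2 fold 1.39 ± 0.14 SE, edgeR adjusted p = 7.75e-07). The compartments did not overlap in any of these 9 genes.

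Signals between the compartments are carried by ligands of one and receptors of the other. The list of oocyte-secreted growth factors has 8 members, none of which has a symbol here, and they are not analysed. Of 20 receptors and SMAD proteins of the TGF-beta family 5 have a symbol and 4 passed the filter on low counts. BMPR1B, a type 1 receptor through which BMP15 and other ligands act on granulosa cells, was on the list of cumulus markers too, and was the exception in both. It had 169, 188 and 224 CPM in oocytes and 3.55, 10.9 and 19.4 CPM in cumulus cells and was 15.1-fold higher in oocytes (log2 fold 3.92 ± 0.22 SE, edgeR adjusted p = 2.46e-09). The ranges did not overlap. The other 3 were higher in cumulus cells. SMAD4, the SMAD shared by all branches of the family, had 124, 159 and 454 CPM in cumulus cells and 13.1, 19.96 and 39.8 CPM in oocytes (log2 fold -3.34 ± 0.33 SE, edgeR adjusted p = 8.41e-07). ID2, a target of BMP signals, had 77.0, 145 and 381 CPM in cumulus cells and 1.02, 2.85 and 47.8 CPM in oocytes (log2 fold -5.65 ± 0.42 SE, edgeR adjusted p = 9.70e-08). AMHR2, the receptor of anti-Mullerian hormone, had 3.07, 6.24 and 13.1 CPM in cumulus cells and 0.0743, 0.338 and 1.11 CPM in oocytes (log2 fold -4.60 ± 0.40 SE, edgeR adjusted p = 1.39e-07).

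The inhibitors of the family were divided. Follistatin (FST, ENSBTAG00000003329), which binds activin, had 3817, 5884 and 7106 CPM in cumulus cells and 0.0684, 21.9 and 688 CPM in oocytes, and its fold is taken up below with the oocyte of complex 72. SMAD6, an inhibitory SMAD, was higher in cumulus cells in 8 of 9 complexes, with 16.96, 45.8 and 84.6 CPM in cumulus cells and 16.3, 18.9 and 29.2 CPM in oocytes (log2 fold -1.26 ± 0.26 SE, edgeR adjusted p = 5.22e-04). BAMBI, a decoy receptor, was higher in oocytes, with 8.89, 11.5 and 14.4 CPM in oocytes and 0.837, 3.18 and 7.54 CPM in cumulus cells (log2 fold 1.65 ± 0.31 SE, edgeR adjusted p = 2.05e-04). GREM1, a BMP antagonist of cumulus cells, did not pass (0.15), and SMAD7 was below the filter. KIT, the receptor through which granulosa cells act on the growing oocyte, had 195, 272 and 312 CPM in oocytes and 24.6, 55.8 and 132 CPM in cumulus cells and was 4.49-fold higher in oocytes (log2 fold 2.17 ± 0.20 SE, edgeR adjusted p = 2.81e-07), while the symbol of its ligand was not found.

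Meiotic arrest is held by cyclic GMP that cumulus cells make and pass to the oocyte, and the 4 of 11 cumulus-side genes with a symbol were all higher in cumulus cells. NPR2, the guanylyl cyclase receptor of this pathway, had 32.1, 52.4 and 122.9 CPM in cumulus cells and 9.07, 16.3 and 19.04 CPM in oocytes (log2 fold -1.96 ± 0.19 SE, edgeR adjusted p = 3.94e-07). GUCY1B1, a subunit of the soluble cyclase, had 10.4, 30.8 and 43.1 CPM in cumulus cells and 2.33, 3.31 and 5.40 CPM in oocytes (log2 fold -3.29 ± 0.27 SE, edgeR adjusted p = 7.00e-08). IMPDH2, which supplies guanine nucleotides, had 121, 154 and 179 CPM in cumulus cells and 53.9, 69.3 and 89.9 CPM in oocytes (log2 fold -1.30 ± 0.14 SE, edgeR adjusted p = 1.16e-06). IMPDH1 went the same way (-1.02). None of the 7 genes of the oocyte side has a symbol.

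Hormone receptors and steroid synthesis marked the cumulus cells, with 1 exception. Of 20 genes 12 have a symbol, 10 were higher in cumulus cells, 1 was higher in oocytes and POR, the reductase of microsomal P450 enzymes, did not pass (-0.01), with a list median of -5.34. HSD17B1, which makes estradiol from estrone, had 1308, 1441 and 1786 CPM in cumulus cells and 2.09, 8.91 and 189 CPM in oocytes (log2 fold -7.26 ± 0.87 SE, edgeR adjusted p = 8.70e-06). FDXR, which passes electrons to mitochondrial P450 enzymes, had 282, 359.7 and 543 CPM in cumulus cells and 10.9, 16.5 and 46.5 CPM in oocytes (log2 fold -4.58 ± 0.22 SE, edgeR adjusted p = 6.29e-10). IGF1R, the receptor of insulin-like growth factor 1, had 235, 415 and 625 CPM in cumulus cells and 44.9, 94.2 and 122.7 CPM in oocytes (log2 fold -2.27 ± 0.14 SE, edgeR adjusted p = 4.89e-09). CYP11A1, the enzyme that cuts the side chain of cholesterol, had 203, 271 and 529 CPM in cumulus cells and 0, 1.61 and 34.4 CPM in oocytes (log2 fold -7.16 ± 0.78 SE, edgeR adjusted p = 3.74e-06). The exception was STAR (ENSBTAG00000033345), the protein that brings cholesterol to that enzyme. It had 485, 540.3 and 612 CPM in oocytes and 1.64, 3.22 and 5.09 CPM in cumulus cells and was 146-fold higher in oocytes (log2 fold 7.19 ± 0.21 SE, edgeR adjusted p = 1.45e-11), the highest cumulus library lying at 5.09 CPM and the lowest oocyte at 485 CPM. The pairs of symbol and identifier used here come from the study's own tables and were not checked against an annotation, which bears on STAR as the exception of its list.

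The transcription factors of granulosa cells followed the hormone genes. Of 16 members 10 have a symbol, 8 were higher in cumulus cells, 0 in oocytes, and FOXO1 (-0.05) and CITED2 (0.46) did not pass, with a list median of -5.16. NR5A2, a nuclear receptor needed for ovulation, had 531, 841 and 1304 CPM in cumulus cells and 3.397, 8.55 and 47.0 CPM in oocytes (log2 fold -6.67 ± 0.38 SE, edgeR adjusted p = 4.14e-09). GATA4 had 222, 265 and 530.2 CPM in cumulus cells and 1.03, 3.67 and 33.2 CPM in oocytes (log2 fold -6.25 ± 0.45 SE, edgeR adjusted p = 6.61e-08). GATA6 had 213, 272 and 504 CPM in cumulus cells and 0.261, 1.3 and 53.5 CPM in oocytes (log2 fold -7.15 ± 0.79 SE, edgeR adjusted p = 4.20e-06). Both are zinc finger factors of the somatic gonad. FOXL2, which keeps granulosa cells from a testicular fate, had 72.4, 113 and 221 CPM in cumulus cells and 0, 1.07 and 21.97 CPM in oocytes (log2 fold -6.63 ± 0.76 SE, edgeR adjusted p = 5.98e-06). FOXL2 and both GATA factors were near 1 to 4 CPM in the median oocyte.

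Among named genes of at least 50 CPM with all 9 complexes alike, the 10 largest differences towards cumulus cells were in FST and in the genes that follow, where INHBA is given beside INHA as the other chain of inhibin A. FSHR, the receptor of follicle stimulating hormone, had 268, 361 and 515 CPM in cumulus cells and 0.102, 0.918 and 51.3 CPM in oocytes (log2 fold -7.82 ± 0.86 SE, edgeR adjusted p = 3.75e-06). INHA, the alpha subunit of inhibin, had 2744, 3769 and 7308 CPM in cumulus cells and 0.0684, 14.1 and 755 CPM in oocytes (log2 fold -8.13 ± 1.33 SE, edgeR adjusted p = 1.20e-04). INHBA, which activin is made of, had 1718, 3808 and 10069 CPM in cumulus cells and 0.410, 21.9 and 822 CPM in oocytes (log2 fold -7.60 ± 1.07 SE, edgeR adjusted p = 3.40e-05). IHH, the hedgehog ligand that granulosa cells send to the theca, had 827, 1201 and 1803 CPM in cumulus cells and 0, 5.58 and 150.5 CPM in oocytes (log2 fold -8.11 ± 1.2 SE, edgeR adjusted p = 5.14e-05). TRIB2, a pseudokinase, had 1341, 1769.6 and 2487 CPM in cumulus cells and 0.274, 7.42 and 272 CPM in oocytes (log2 fold -8.01 ± 1.06 SE, edgeR adjusted p = 2.00e-05). GSTA1, a glutathione transferase of steroid-making cells, had 2273, 2952 and 3781 CPM in cumulus cells and 0.410, 18.3 and 257 CPM in oocytes (log2 fold -7.97 ± 1.17 SE, edgeR adjusted p = 4.92e-05). RARRES2, the adipokine chemerin, had 1249, 1576 and 1703 CPM in cumulus cells and 0.479, 6.71 and 195 CPM in oocytes (log2 fold -7.90 ± 1.08 SE, edgeR adjusted p = 2.56e-05). SMOC2, a matricellular protein, had 694, 1165 and 1462 CPM in cumulus cells and 0, 3.62 and 141 CPM in oocytes (log2 fold -7.86 ± 1.11 SE, edgeR adjusted p = 3.37e-05). VIM, the vimentin of intermediate filaments, had 4064, 4819 and 7175 CPM in cumulus cells and 0.137, 28.2 and 629.9 CPM in oocytes (log2 fold -7.74 ± 1.33 SE, edgeR adjusted p = 1.74e-04). APOA1, the main protein of high density lipoprotein, had the greatest difference and the most uneven cumulus values of these genes, with 107, 351 and 4066 CPM in cumulus cells and 0, 0.765 and 13.8 CPM in oocytes (log2 fold -8.37 ± 0.81 SE, edgeR adjusted p = 1.26e-06), the highest in complex 71. In all of these genes the compartments did not overlap, and the oocyte values spanned a wider range of folds than the cumulus values.

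The spread of these genes in oocytes was shared between genes and followed the complex. FST had 0.0684 CPM in oocyte 17 and 0.508 CPM in oocyte 19 but 98.9 CPM in oocyte 70, 182 CPM in oocyte 74 and 688 CPM in oocyte 72, against 3817 to 7106 CPM in cumulus cells. As a percent of the level in the complex's own cumulus cells this was 1.81 in complex 70, 3.09 in complex 74 and 9.68 in complex 72. Over the 45 genes at 100 CPM or more in every cumulus library and under 0.5 CPM in oocytes 17 and 19, a choice made on those 2 oocytes, the median percent was 0.360 in complex 71, 0.471 in complex 24, 0.523 in complex 69 and 0.126 in complex 73. It was 1.71 in complex 70, 3.13 in complex 74 and 10.1 in complex 72. In complex 72 the quartiles over the 45 genes were 8.90% and 12.2%. Their source was not tested.

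**Figure D4:**
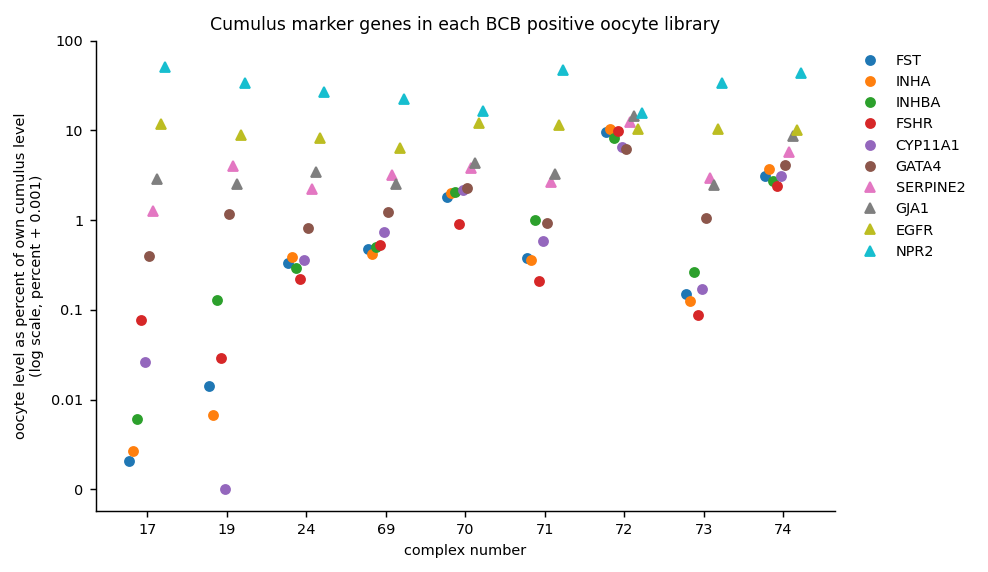
CPM in the oocyte as a percent of the CPM in the cumulus cells of the same complex, on a log axis. Points are 10 of the 13 cumulus markers in each of the 9 complexes. FOXL2, NR5A2 and BMPR1B are not drawn, and BMPR1B was higher in the oocyte of all 9 complexes. The points of FST reach 9.68% in complex 72, 3.09% in complex 74 and 1.81% in complex 70, while EGFR stays at 6.36% to 12.2% and NPR2 at 15.5% to 51.0% in all complexes.

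Fold changes of the most cumulus-enriched genes depended on these oocytes, and their calls held without them. Without complexes 70, 72 and 74, an alternative added after the data had been seen, the log2 fold change was -9.75 for FST, -9.79 for INHA, -9.50 for VIM, -8.67 for SRGN and -9.29 for FSHR. The same alternative gave -9.83 for APOA1, -9.69 for IHH, -9.35 for TRIB2, -9.55 for GSTA1, -9.33 for RARRES2, -9.37 for SMOC2 and -8.95 for INHBA. Among factors, enzymes and other cumulus genes described here it gave -8.25 for FOXL2, -7.02 for GATA4, -8.57 for GATA6, -6.30 for ID2, -8.57 for CYP11A1, -8.52 for HSD17B1, -9.18 for COL6A2, -7.34 for SLC2A3, -6.14 for PGK1, -7.29 for GPX1, -8.35 for FOS, -9.15 for CCND2, -7.85 for H1-10 and -7.51 for H2AZ1. All of these lay farther from 0 than over the 9 complexes. Of the oocyte genes SAXO1 moved to 12.83, ACCSL to 12.14, NEFL to 11.86, NR3C2 to 12.94, YBX2 to 11.31, DAZL to 5.08 and MSH4 to 2.64. The value of FST was -8.14 ± 1.31 SE over all 9 complexes (edgeR adjusted p = 1.01e-04), -6.76 in complexes 69 to 74 and -11.71 in complexes 17 to 24. With only 3 pairs in complexes 17 to 24, FST, INHA (-11.58) and VIM (-11.07) did not pass there. With no replicate block FST stood at -5.79, INHA at -5.33, VIM at -5.55, SRGN at -5.38 and FSHR at -5.75. A total of 26 genes described here moved by over 1.5-fold without the block, each nearer to 0 and still past the threshold, among them IHH (-5.78), TRIB2 (-5.70), SMOC2 (-5.59), RARRES2 (-5.78), FOS (-4.99), INHBA (-5.58) and CCND2 (-5.71), each by over 4-fold. The numbers of complexes fall into these 2 runs, and the labels do not call them batches. Of the genes described here 52 moved by over 1.5-fold in complexes 17 to 24 alone and 24 in complexes 69 to 74 alone.

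Some cumulus genes were measured in all oocytes. EGFR, the receptor of the epidermal growth factors that trigger expansion, had 180.1, 261 and 383 CPM in cumulus cells and 19.2, 23.3 and 40.0 CPM in oocytes (log2 fold -3.55 ± 0.12 SE, edgeR adjusted p = 3.75e-11). Its oocyte level was 6.36% to 12.2% of the cumulus level in all 9 complexes, complex 72 included, and its error was among the smallest of the markers. GJA1, the connexin of cumulus gap junctions, had 401, 667 and 894 CPM in cumulus cells and 15.8, 22.4 and 97.0 CPM in oocytes (log2 fold -4.86 ± 0.32 SE, edgeR adjusted p = 1.27e-08), 2.48% to 14.5% of the cumulus level and most in complex 72. SERPINE2, a secreted protease inhibitor, had 2372, 3609 and 5429 CPM in cumulus cells and 51.6, 107 and 666 CPM in oocytes (log2 fold -5.05 ± 0.34 SE, edgeR adjusted p = 1.25e-08), 1.26% to 12.3% of the cumulus level and again most in complex 72. Oocytes 17 and 19, with almost no FST, were thus not without these transcripts.

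The named genes with the largest share of cumulus counts were again secreted, cytoskeletal and metabolic. SRGN, the proteoglycan of secretory granules, had 4928, 6027 and 9027 CPM in cumulus cells and 5.79, 51.2 and 936 CPM in oocytes (log2 fold -7.21 ± 1.04 SE, edgeR adjusted p = 4.31e-05). VCAN, the large proteoglycan of the cumulus matrix, had 2846, 3404 and 4366 CPM in cumulus cells and 35.3, 66.2 and 300.5 CPM in oocytes (log2 fold -5.84 ± 0.34 SE, edgeR adjusted p = 3.23e-09), with 35.3 to 105 CPM in the 8 oocytes outside complex 72. ACTB, the beta actin, had 2629, 3350.4 and 4272 CPM in cumulus cells and 313, 427 and 558 CPM in oocytes (log2 fold -3.22 ± 0.18 SE, edgeR adjusted p = 1.89e-09). COX1, a mitochondrially encoded subunit of cytochrome oxidase, had 1901, 3136 and 5454 CPM in cumulus cells and 117, 346 and 739 CPM in oocytes (log2 fold -3.58 ± 0.41 SE, edgeR adjusted p = 2.35e-06). FST, INHA, INHBA, VIM, SERPINE2 and ENO1 complete the 10. Each of the 10, chosen for high cumulus counts, was higher in the cumulus cells of 9 of 9 complexes. All 9 complexes also had the same direction in 10575 of the 11416 genes that differed.

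Genes of expansion, matrix and adhesion were on the cumulus side with a few clear exceptions. On the list of cumulus expansion and the EGF network 4 of 16 have a symbol, and HAS3, a hyaluronan synthase, was the 1 higher in oocytes, with 3.94, 13.5 and 20.7 CPM in oocytes and 0.265, 1.09 and 2.05 CPM in cumulus cells (log2 fold 3.15 ± 0.43 SE, edgeR adjusted p = 1.20e-05). Among 9 of 30 matrix and adhesion genes 6 were higher in cumulus cells, 2 in oocytes and ITGB1 in neither, with a list median of -4.66. ITGA6, the integrin alpha chain that binds laminin, had 185, 463 and 771 CPM in cumulus cells and 33.2, 42.6 and 53.2 CPM in oocytes (log2 fold -3.72 ± 0.22 SE, edgeR adjusted p = 3.42e-09). COL6A2, a collagen VI chain, had 224, 303 and 519 CPM in cumulus cells and 0, 0.918 and 43.7 CPM in oocytes (log2 fold -7.42 ± 1.013 SE, edgeR adjusted p = 2.60e-05). COL1A2, a chain of collagen I, was higher in oocytes but low, with 6.02, 9.23 and 13.8 CPM in oocytes and 0, 0.342 and 0.942 CPM in cumulus cells (log2 fold 4.70 ± 0.45 SE, edgeR adjusted p = 4.22e-07). LAMB1, a laminin beta chain, had 25.8, 52.7 and 113 CPM in oocytes and 7.09, 18.4 and 73.8 CPM in cumulus cells (log2 fold 1.33 ± 0.37 SE, edgeR adjusted p = 0.00497), which did not pass with no replicate block (1.12), in complexes 17 to 24 alone (0.68), without complexes 70, 72 and 74, or without any 1 of complexes 24, 69, 72 and 73. The junction list divided evenly. Beside GJA1, CTNNB1, the beta-catenin of adherens junctions, was higher in cumulus cells with 585, 820.1 and 1270.4 CPM in cumulus cells and 485, 550.3 and 718 CPM in oocytes (log2 fold -0.76 ± 0.13 SE, edgeR adjusted p = 9.84e-05). CTNNA1, its partner alpha-catenin, was higher in oocytes with 516, 604 and 678 CPM in oocytes and 188, 228 and 262 CPM in cumulus cells (log2 fold 1.22 ± 0.10 SE, edgeR adjusted p = 1.07e-07). So was the tight junction scaffold TJP1, with 71.7, 152 and 209 CPM in oocytes and 29.6, 45.3 and 61.8 CPM in cumulus cells (log2 fold 1.52 ± 0.16 SE, edgeR adjusted p = 1.12e-06).

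**Figure D5:**
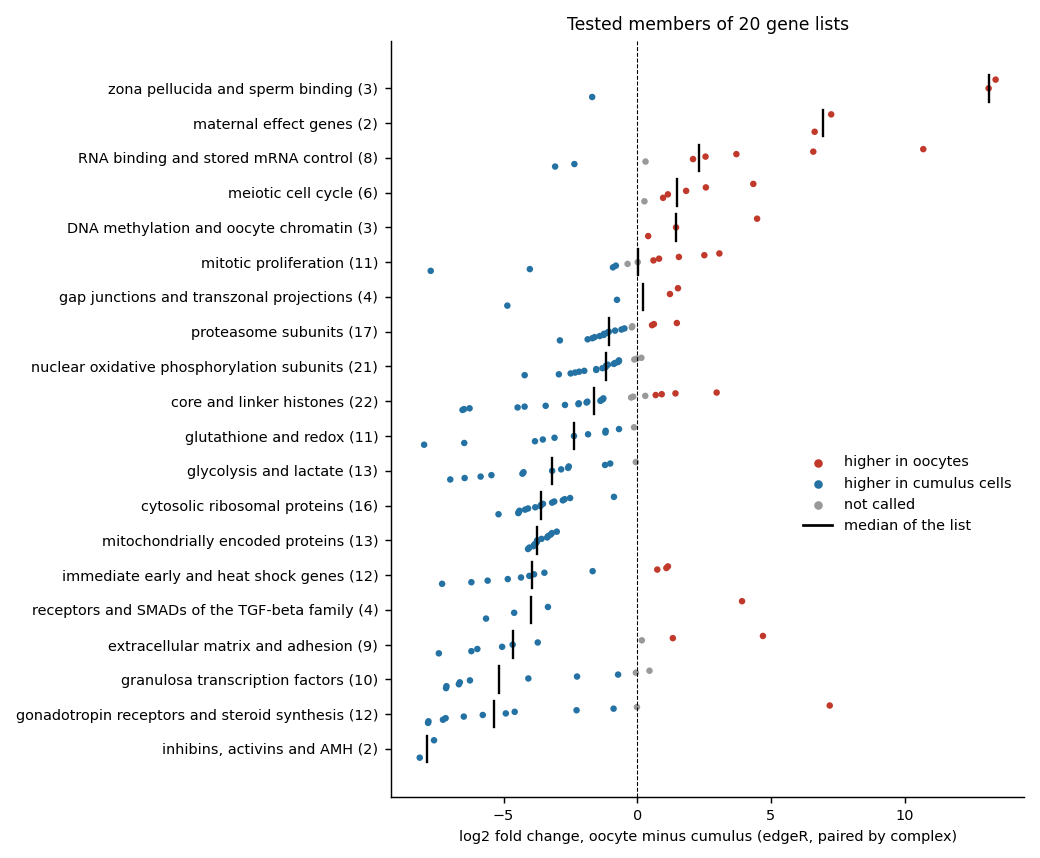
Log2 fold change, oocyte minus cumulus cells, of each measured member (dots) of 20 gene lists, with a bar at the list's median. Medians of the oocyte lists lie to the right of 0, and those of the hormone, granulosa, glycolysis and ribosomal protein lists to the left, while proliferation genes lie on both sides.

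Genes of glycolysis were mostly higher in cumulus cells. Cumulus cells break glucose down to pyruvate and lactate for the oocyte, which has little glycolysis of its own, and of 13 measured genes of 23 on the glycolysis list 12 were higher in cumulus cells, 0 in oocytes and SLC16A1, a transporter of lactate and pyruvate, in neither (-0.05), with a median of -3.18. Over all genes with a symbol the median was -0.14. SLC2A3, a glucose transporter, had 751, 1456 and 2354 CPM in cumulus cells and 5.98, 19.4 and 201 CPM in oocytes (log2 fold -6.45 ± 0.60 SE, edgeR adjusted p = 7.20e-07). ENO1, the enolase, had 2316, 3831 and 5422 CPM in cumulus cells and 135, 192 and 1062 CPM in oocytes (log2 fold -4.29 ± 0.33 SE, edgeR adjusted p = 4.96e-08). Outside complex 72 the oocytes lay at 135 to 362 CPM. PKM, the pyruvate kinase, had 892, 1302 and 1771 CPM in cumulus cells and 163, 194 and 336 CPM in oocytes (log2 fold -2.85 ± 0.14 SE, edgeR adjusted p = 8.45e-10). PGK1, the phosphoglycerate kinase, had 636, 1004 and 1405 CPM in cumulus cells and 7.52, 22.1 and 214 CPM in oocytes (log2 fold -5.45 ± 0.42 SE, edgeR adjusted p = 8.18e-08). No measured enzyme of the list was higher in oocytes.

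A pair of genes of the pentose phosphate pathway, which makes NADPH and ribose, went in opposite directions. PGLS, the lactonase of the pathway, had 76.5, 115 and 139 CPM in cumulus cells and 42.9, 57.0 and 67.1 CPM in oocytes (log2 fold -1.22 ± 0.12 SE, edgeR adjusted p = 6.89e-07). PGD, the phosphogluconate dehydrogenase, was higher in the oocyte of 9 of 9 complexes, with 403, 486 and 536 CPM in oocytes and 179.9, 278 and 426 CPM in cumulus cells (log2 fold 0.67 ± 0.15 SE, edgeR adjusted p = 8.97e-04), although the ranges overlapped and its 0.51 did not pass in complexes 69 to 74 alone.

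Cholesterol and redox genes were mostly higher in cumulus cells. Of 6 measured genes of cholesterol synthesis 4 were higher in cumulus cells, EBP in neither (-0.25), and HMGCS1, the synthase at the entry of the pathway, in oocytes, with 521, 575 and 913 CPM in oocytes and 117, 207 and 373 CPM in cumulus cells (log2 fold 1.51 ± 0.21 SE, edgeR adjusted p = 1.57e-05). LSS, the lanosterol synthase, had 93.9, 129.8 and 176 CPM in cumulus cells and 31.8, 44.9 and 73.4 CPM in oocytes (log2 fold -1.73 ± 0.13 SE, edgeR adjusted p = 2.79e-08). SREBF2, the factor that turns these genes on, had 148, 207 and 368 CPM in cumulus cells and 58.0, 152 and 193 CPM in oocytes (log2 fold -0.92 ± 0.16 SE, edgeR adjusted p = 8.97e-05). The list median was -1.32. Of 11 glutathione and redox genes 10 were higher in cumulus cells and PRDX5 in neither (-0.12), with a median of -2.37. GCLC, which makes the first step of glutathione, had 1398, 1733 and 2206 CPM in cumulus cells and 353, 390.0 and 452 CPM in oocytes (log2 fold -2.37 ± 0.12 SE, edgeR adjusted p = 1.03e-09). GPX1, a glutathione peroxidase, had 648, 920.0 and 1166 CPM in cumulus cells and 1.71, 10.2 and 145 CPM in oocytes (log2 fold -6.47 ± 0.64 SE, edgeR adjusted p = 1.46e-06). GPX4, which guards lipids, had 297, 497 and 878 CPM in cumulus cells and 128, 163 and 221 CPM in oocytes (log2 fold -1.84 ± 0.15 SE, edgeR adjusted p = 8.50e-08). No measured redox gene was higher in oocytes.

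Lipid and transport genes were found on both sides. Of 5 lipid genes 2 were higher in oocytes and 3 in cumulus cells (median -1.87), and of 4 transporters 2 and 2 (median -1.35). FABP5, a fatty acid binding protein, had 149, 265 and 358 CPM in oocytes and 0.999, 2.23 and 4.95 CPM in cumulus cells and was 99.2-fold higher in oocytes (log2 fold 6.63 ± 0.27 SE, edgeR adjusted p = 1.65e-10). DGAT1, which makes triglyceride, was modestly higher, with 31.6, 42.1 and 45.5 CPM in oocytes and 18.1, 20.04 and 29.0 CPM in cumulus cells (log2 fold 0.66 ± 0.13 SE, edgeR adjusted p = 4.00e-04). Higher in cumulus cells were the acyl-CoA dehydrogenases ACADVL, with 112, 157 and 183 CPM in cumulus cells and 25.2, 50.1 and 56.7 CPM in oocytes (log2 fold -1.94 ± 0.13 SE, edgeR adjusted p = 9.44e-09), and ACADM, with 72.9, 89.8 and 136 CPM in cumulus cells and 7.18, 12.3 and 19.3 CPM in oocytes (log2 fold -3.20 ± 0.23 SE, edgeR adjusted p = 2.10e-08), together with the lipase gene PNPLA2 (-1.87). Among the transporters SLC3A2, the heavy chain of amino acid exchangers, had 145, 168 and 246 CPM in oocytes and 35.6, 41.3 and 86.5 CPM in cumulus cells (log2 fold 1.78 ± 0.16 SE, edgeR adjusted p = 2.00e-07). SLC6A8, the creatine transporter, had 95.1, 153 and 194 CPM in oocytes and 19.1, 26.4 and 44.9 CPM in cumulus cells (log2 fold 2.22 ± 0.18 SE, edgeR adjusted p = 9.52e-08). SLC7A5, a light chain that pairs with SLC3A2, was on the opposite side, with 13.8, 27.6 and 70.01 CPM in cumulus cells and 0, 1.39 and 3.92 CPM in oocytes (log2 fold -4.47 ± 0.50 SE, edgeR adjusted p = 2.52e-06). The amino acid transporter SLC38A5, which cumulus cells use to feed the oocyte, had 5.29, 7.86 and 11.8 CPM in cumulus cells and 0, 0.260 and 1.24 CPM in oocytes (log2 fold -5.11 ± 0.53 SE, edgeR adjusted p = 8.99e-07).

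The genes of protein synthesis and respiration were higher in cumulus cells as groups. All 16 measured ribosomal protein genes were higher there, with a median of -3.61. RPL5 had 1192, 1719 and 2727 CPM in cumulus cells and 95.1, 203 and 396 CPM in oocytes (log2 fold -3.52 ± 0.23 SE, edgeR adjusted p = 9.45e-09). RPS6, the ribosomal target of growth signals, had 1036, 1418 and 2227 CPM in cumulus cells and 102, 133 and 289.9 CPM in oocytes (log2 fold -3.60 ± 0.23 SE, edgeR adjusted p = 7.28e-09). Ribosomal protein genes have many processed copies, among which reads can be divided. All 13 protein-coding genes of mitochondrial DNA were higher in cumulus cells as well, with a median of -3.74. ND4, of complex I, had 1345, 1805 and 4479 CPM in cumulus cells and 70.2, 117 and 669 CPM in oocytes (log2 fold -4.08 ± 0.50 SE, edgeR adjusted p = 6.20e-06). COX3 had 955, 1651 and 4372 CPM in cumulus cells and 126, 303 and 519 CPM in oocytes (log2 fold -3.01 ± 0.36 SE, edgeR adjusted p = 3.87e-06). CYTB, of complex III, had 853, 1267 and 3231 CPM in cumulus cells and 91.4, 203 and 415 CPM in oocytes (log2 fold -3.19 ± 0.38 SE, edgeR adjusted p = 3.57e-06). The size depended on the run of complexes. The median of the 13 was -2.96 in complexes 69 to 74 and -4.85 in complexes 17 to 24, where all 13 passed in either. ND4 moved from -3.35 to -5.35, COX1 from -2.86 to -4.95, and CYTB from -2.56 to -4.36 between them, and COX3 stood at -3.97 in complexes 17 to 24. The cDNA was primed on poly(A), and tail lengths were not measured in either compartment.

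Respiratory subunits encoded in the nucleus lay nearer to 0 in the median than those of mitochondrial DNA, a difference between lists that was not tested. Of 21 genes 18 were higher in cumulus cells, 0 in oocytes and 3 in neither, with a median of -1.17. ATP5F1B, of ATP synthase, had 338, 448 and 498 CPM in cumulus cells and 70.4, 90.5 and 137 CPM in oocytes (log2 fold -2.49 ± 0.14 SE, edgeR adjusted p = 2.00e-09). COX4I1 had 205, 273 and 316 CPM in cumulus cells and 77.8, 108 and 137 CPM in oocytes (log2 fold -1.53 ± 0.13 SE, edgeR adjusted p = 8.69e-08). SDHA, of complex II, had 171, 259.7 and 356 CPM in cumulus cells and 83.1, 94.99 and 136 CPM in oocytes (log2 fold -1.53 ± 0.12 SE, edgeR adjusted p = 7.24e-08). Proteasome subunits, which take apart ubiquitinated proteins, were divided, with 12 of 17 higher in cumulus cells, 3 in oocytes and 2 in neither, and a median of -1.06. Towards oocytes were PSMD1, with 296, 337 and 380.4 CPM in oocytes and 174, 192 and 278 CPM in cumulus cells (log2 fold 0.55 ± 0.10 SE, edgeR adjusted p = 1.94e-04), PSMA5, with 218, 248 and 316 CPM in oocytes and 95.5, 139 and 199 CPM in cumulus cells (log2 fold 0.62 ± 0.12 SE, edgeR adjusted p = 1.90e-04), and PSMD9, with 69.9, 90 and 108 CPM in oocytes and 19.6, 30.5 and 32.5 CPM in cumulus cells (log2 fold 1.48 ± 0.11 SE, edgeR adjusted p = 4.63e-08). Towards cumulus cells were PSMB7, with 175, 225 and 330.3 CPM in cumulus cells and 83.8, 102 and 127 CPM in oocytes (log2 fold -1.40 ± 0.11 SE, edgeR adjusted p = 3.57e-08), and PSMD2, with 212, 250.3 and 291 CPM in cumulus cells and 157, 202 and 268 CPM in oocytes (log2 fold -0.48 ± 0.12 SE, edgeR adjusted p = 0.00183), which did not pass with library totals alone (-0.27), without complexes 70, 72 and 74 or in complexes 17 to 24 alone (-0.11).

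Histone genes were on both sides. Of 22 measured genes 15 were higher in cumulus cells, 4 in oocytes and 3 in neither, with a median of -1.62, and together they took 0.0538%, 0.0830% and 0.111% of oocyte counts and 0.161%, 0.191% and 0.256% of cumulus counts (exact permutation p = 0.00391, adjusted 0.00434). H2BC18 had 205, 298 and 328 CPM in oocytes and 18.9, 27.5 and 51.4 CPM in cumulus cells (log2 fold 2.97 ± 0.17 SE, edgeR adjusted p = 2.34e-09). H3C1 had 30.7, 49.9 and 91.7 CPM in oocytes and 7.16, 15.7 and 29.8 CPM in cumulus cells (log2 fold 1.43 ± 0.22 SE, edgeR adjusted p = 3.20e-05). H2AC21 had 20.6, 37.0 and 66.9 CPM in oocytes and 9.20, 14.4 and 30.6 CPM in cumulus cells (log2 fold 0.91 ± 0.20 SE, edgeR adjusted p = 7.74e-04), a call that was lost without complexes 70, 72 and 74. Linker histones and a variant led the other side. H1-2 had 313, 431 and 579 CPM in cumulus cells and 89.95, 132 and 172 CPM in oocytes (log2 fold -1.90 ± 0.19 SE, edgeR adjusted p = 7.02e-07). H1-10 had 252, 367 and 430.0 CPM in cumulus cells and 0.871, 2.01 and 31.5 CPM in oocytes (log2 fold -6.53 ± 0.73 SE, edgeR adjusted p = 4.81e-06). H2AZ1, the H2A.Z variant, had 142, 269.9 and 358 CPM in cumulus cells and 0.547, 2.16 and 26.0 CPM in oocytes (log2 fold -6.47 ± 0.57 SE, edgeR adjusted p = 5.51e-07). Core histone genes exist in near-identical copies, so that the division of reads between them is uncertain, and many of their mRNAs lack a poly(A) tail.

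Immediate early genes and heat shock genes parted. Of 12 measured genes 9 were higher in cumulus cells, all of them immediate early genes, and the 3 higher in oocytes were heat shock genes. JUN had 1023, 1424 and 3093 CPM in cumulus cells and 30.4, 72.9 and 345 CPM in oocytes (log2 fold -4.35 ± 0.28 SE, edgeR adjusted p = 7.61e-09). Its partner in AP-1, FOS, had 411, 947 and 3415 CPM in cumulus cells and 1.52, 6.42 and 376 CPM in oocytes (log2 fold -7.30 ± 0.78 SE, edgeR adjusted p = 3.15e-06). EGR1, a zinc finger factor induced by growth signals, had 324, 803 and 5058 CPM in cumulus cells and 11.3, 16.6 and 394 CPM in oocytes (log2 fold -5.59 ± 0.36 SE, edgeR adjusted p = 1.07e-08). The highest oocyte value of both was in complex 72, and the next highest was 25.9 CPM for FOS and 37.1 CPM for EGR1. JUND, a less inducible member, had 579, 1012 and 1809.6 CPM in cumulus cells and 242, 372 and 561 CPM in oocytes (log2 fold -1.67 ± 0.19 SE, edgeR adjusted p = 2.16e-06). HSPA1A, the inducible HSP70, had 275, 516 and 821 CPM in oocytes and 84.0, 132 and 593 CPM in cumulus cells (log2 fold 1.15 ± 0.28 SE, edgeR adjusted p = 0.00196). DNAJB1, its HSP40 partner, had 325, 361 and 399 CPM in oocytes and 61.1, 176 and 339 CPM in cumulus cells (log2 fold 1.09 ± 0.28 SE, edgeR adjusted p = 0.00254). HSPH1 had 166, 222 and 259.7 CPM in oocytes and 68.4, 121 and 235 CPM in cumulus cells (log2 fold 0.75 ± 0.18 SE, edgeR adjusted p = 0.00140). In complexes 69 to 74 alone HSPA1A (0.75), DNAJB1 (0.63) and HSPH1 (0.54) did not pass, and HSPA1A (0.82) did not pass with no replicate block.

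Proliferation genes were found on both sides in shares near those over all genes with a symbol. Among 11 measured genes 5 were higher in oocytes, 4 in cumulus cells and 2 in neither, at a median of 0.02. The 5 higher in oocytes were MCM2 (0.61), MCM5 (0.81) and the 3 that follow. MCM4, a helicase subunit of replication, had 438, 493 and 816 CPM in oocytes and 28.4, 54.8 and 88.5 CPM in cumulus cells (log2 fold 3.07 ± 0.18 SE, edgeR adjusted p = 3.91e-09). MCM3, another subunit, had 225, 340.5 and 403 CPM in oocytes and 21.5, 56.4 and 85.3 CPM in cumulus cells (log2 fold 2.51 ± 0.22 SE, edgeR adjusted p = 1.53e-07). PCNA, the sliding clamp of DNA polymerase, had 224, 269 and 304 CPM in oocytes and 56.1, 78.1 and 108 CPM in cumulus cells (log2 fold 1.56 ± 0.14 SE, edgeR adjusted p = 1.56e-07). CCND2, the D cyclin of granulosa cells, was on the other side, with 811, 960.4 and 1279 CPM in cumulus cells and 0, 5.28 and 122 CPM in oocytes (log2 fold -7.72 ± 1.07 SE, edgeR adjusted p = 3.05e-05). CDKN1B, the p27 inhibitor of cyclin kinases, had 48.4, 82.7 and 95.2 CPM in cumulus cells and 34.6, 47.7 and 62.2 CPM in oocytes (log2 fold -0.91 ± 0.11 SE, edgeR adjusted p = 3.09e-06). CCND3 (-0.80) and the kinase inhibitor CDKN2C (-4.02) were also higher in cumulus cells, while RRM2 (0.018) and CDKN1C (-0.36) did not pass. All 4 measured apoptosis genes were higher in cumulus cells, among them MCL1, which protects from death, with 123.3, 189 and 387 CPM in cumulus cells and 48.0, 63.3 and 102 CPM in oocytes (log2 fold -1.83 ± 0.15 SE, edgeR adjusted p = 7.18e-08), and BAK1, which opens mitochondria, with 31.9, 37.8 and 49.9 CPM in cumulus cells and 4.66, 7.40 and 11.1 CPM in oocytes (log2 fold -2.67 ± 0.15 SE, edgeR adjusted p = 2.90e-09).

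Markers of other cells were looked at as well. The 6 theca and smooth muscle markers have no symbol. Of 7 blood and immune markers only HBA, a globin, has a symbol. It had 0.265, 17.1 and 573 CPM in cumulus cells and 3.42, 12.04 and 214 CPM in oocytes, did not differ between the compartments past the threshold (log2 fold -1.34 ± 0.73 SE, edgeR adjusted p = 0.102), and was highest in both libraries of complex 72. Of 5 endothelial markers TEK and VWF have a symbol, and both were higher in oocytes under these names, which were not checked against an annotation. TEK, the angiopoietin receptor, had 55.5, 72.8 and 93.0 CPM in oocytes and 0.265, 0.657 and 1.37 CPM in cumulus cells (log2 fold 6.50 ± 0.21 SE, edgeR adjusted p = 2.47e-11). VWF, the von Willebrand factor, had 36.0, 65.1 and 82.9 CPM in oocytes and 0.671, 2.08 and 5.82 CPM in cumulus cells (log2 fold 4.31 ± 0.31 SE, edgeR adjusted p = 2.14e-08). The lowest oocyte lay above the highest cumulus library in both, and the other 3 endothelial markers have no symbol.

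A minority of genes were held at like shares in both compartments. For 657 of 13645 genes the 95% interval of the log2 fold change lay within 0.5 of 0, and the named genes with the most counts among them included ITGB1, FOXO1, KTN1 and ARF1. ITGB1, the integrin beta chain that pairs with many alpha chains, had 519, 602 and 875 CPM in oocytes and 321, 497 and 557 CPM in cumulus cells (log2 fold 0.17 ± 0.13 SE, edgeR adjusted p = 0.211), while its alpha partner ITGA6 differed as given above. FOXO1, a factor that insulin signals turn off, had 262, 405 and 531 CPM in oocytes and 232, 327 and 616 CPM in cumulus cells (log2 fold -0.05 ± 0.15 SE, edgeR adjusted p = 0.757). KTN1, the kinesin receptor, had 329, 378 and 574 CPM in oocytes and 233, 339 and 560.0 CPM in cumulus cells (log2 fold -0.08 ± 0.13 SE, edgeR adjusted p = 0.567). ARF1, a small GTPase of the Golgi, had 332, 350.1 and 387 CPM in oocytes and 235, 299 and 372 CPM in cumulus cells (log2 fold 0.03 ± 0.10 SE, edgeR adjusted p = 0.768). The sign of all but ITGB1 changes with the scaling, the filter or a left-out complex, and the sizes remain small.

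The repeatability of a difference from complex to complex was itself gene specific. Over the 1011 named genes with a mean of at least 50 CPM in both compartments the SD of the paired log2 difference had a median of 0.35. It was smallest in GMPS (0.09), VAPB (0.10), PRPF6 (0.11), PHAX (0.12) and DHX40 (0.12). GMPS, which makes GMP, had 234, 278 and 337 CPM in oocytes and 213, 239 and 307 CPM in cumulus cells and no difference past the threshold (log2 fold -0.02 ± 0.08 SE, edgeR adjusted p = 0.794). VAPB, a membrane contact protein, had 93.4, 102 and 116 CPM in cumulus cells and 53.3, 63.0 and 68.7 CPM in oocytes (log2 fold -0.94 ± 0.08 SE, edgeR adjusted p = 1.58e-07). PRPF6, a splicing factor, had 221, 263 and 347 CPM in oocytes and 64.3, 79.2 and 97.1 CPM in cumulus cells (log2 fold 1.59 ± 0.08 SE, edgeR adjusted p = 1.20e-09). PHAX, which exports small nuclear RNA, had 109, 121 and 164 CPM in oocytes and 55.1, 66.1 and 85.2 CPM in cumulus cells (log2 fold 0.74 ± 0.08 SE, edgeR adjusted p = 1.80e-06). The helicase DHX40 had 87.8, 104 and 119 CPM in oocytes and 47.6, 56.3 and 67.7 CPM in cumulus cells (log2 fold 0.67 ± 0.08 SE, edgeR adjusted p = 5.36e-06). Differences of less than 2-fold were thus resolved in genes of this kind. The SD was largest in VIM (3.35), FST (3.24), INHA (3.24), INHBA (2.83) and SRGN (2.70). VIM, FST, INHA and INHBA had oocyte medians under 50 CPM and met the limit through a few high oocytes, above all complex 72, while GSTA1 (SD 2.90) and IHH (2.75) fell short of it.

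Whether these differences were particular to BCB positive complexes was asked with the 10 BCB negative complexes, in 1 fit over 14898 genes and 38 libraries. The difference between oocyte and cumulus cells depended on BCB class in 2 genes at an adjusted p under 0.01, or 0.0134%, and in 14 genes at 0.05, with 2242 at an unadjusted p under 0.05. DKK3, an inhibitor of WNT signals, was higher in oocytes by 6.39 (log2) in BCB positive and by 1.94 in BCB negative complexes, a difference of 4.46 ± 0.46 (SE, edgeR adjusted p = 2.50e-05). Its levels were 71.7, 85.4 and 112 CPM in BCB positive oocytes and 72.2, 96.4 and 118 CPM in BCB negative ones. The cumulus cells had 0.215, 0.959 and 2.51 CPM in BCB positive and 2.72, 15.04 and 41.9 CPM in BCB negative complexes, without overlap between the classes. TRPS1, a GATA-type repressor, was lower in oocytes by a log2 fold change of -2.50 in BCB positive and -4.10 in BCB negative complexes (difference 1.604 ± 0.23 SE, edgeR adjusted p = 0.00271). It had 9.34, 12.9 and 20.3 CPM in BCB positive and 6.91, 8.27 and 14.8 CPM in BCB negative oocytes. In cumulus cells it had 58.8, 64.9 and 88.9 CPM in BCB positive and 73.1, 95.97 and 148 CPM in BCB negative complexes, with overlap in both compartments. Its call did not hold in complexes 65 to 74 alone or without complexes 70, 72 and 74.

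The next 3 genes did not pass. WNT9A, a WNT ligand, had a difference of -4.52 (edgeR adjusted p = 0.0180), BASP1, a membrane-bound cytoskeletal protein, of 2.93 (edgeR adjusted p = 0.0240) and TMCC3, a membrane protein of the endoplasmic reticulum, of 3.43 (edgeR adjusted p = 0.0307). The number of such genes was not stable. It was 236 with library totals alone, 13 of them with a positive difference, and 258 with no replicate block, 251 of them positive. It was 198 with DESeq2 (186 positive), 165 in complexes 65 to 74 alone (165 positive) and 1 without complexes 70, 72 and 74. Whether the same genes were called in these fits was not counted. DKK3 passed in each of these fits, with differences of 3.97 to 4.61. The cumulus libraries of BCB negative complexes were smaller, at 1103200 to 8013318 counts, and 6 of those complexes carry numbers from 86 to 91, a run with 0 BCB positive complexes, so that class and run cannot be told apart there.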

How the data were processed

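RNA of single oocytes and of the cumulus cells of the same complex was primed on poly(A), amplified and sequenced as paired ends. The authors aligned reads to ARS-UCD1.2 with HISAT2 2.1.0, removed duplicates and counted on Ensembl genes with featureCounts 1.6.0, per the study's methods and processing notes. The deposited values are raw counts on 27607 identifiers per library, without normalization, and 0 rows named no gene. Strand use in counting is not given in the sources used here, so that reads of overlapping and antisense genes cannot be told apart. Compartment, complex and BCB class came from the labels.

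Counts of the 18 libraries were fitted with edgeR 4.0.16 in R 4.3.3 (TMM, robust quasi-likelihood) with complex as a block, so that each oocyte was set against its own cumulus cells, and genes were called at an adjusted p under 0.01. The SE of a log2 fold change was taken from the fit's F statistic. The pairing is the complex number in the labels. Deviations of an oocyte and its own cumulus cells from their compartment means correlated at -0.0149 to 0.172. Dependence on BCB class was tested as an interaction over 38 libraries, with complexes nested in class. Library measures were put to the two-sided exact permutation test over pairs in Python 3.11.15 (numpy 2.4.6, pandas 2.3.3, scipy 1.17.1). Plots were made in matplotlib 3.10.9. The paired differences gave the SD over complexes and the direction of a gene in each complex. They were taken on log2 of TMM-scaled CPM with 0.5 added, so that a direction can differ from that of the CPM printed.

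Symbols came from the study's supplementary tables, which name 4934 identifiers, so that lists are measured in part and named genes are not an even sample of all genes. These pairs of symbol and identifier were not checked against an annotation. The members and lists were chosen with earlier results of these data known. The genes named are the list members with the highest mean CPM in the direction described and those that go the other way, the 10 largest differences in each direction with at least 50 CPM and 9 of 9 complexes alike, the 10 with the highest CPM in each compartment, the 5 of highest CPM with an interval within 0.5 of 0, the 5 of lowest adjusted p for dependence on BCB class, and the 5 with the largest and the 5 with the smallest SD over complexes. IMPDH1, PUM2, PNPLA2 and other members that passed no threshold or are given without levels were added to close a count. Alternatives were no replicate block, DESeq2 size factors, library totals alone, DESeq2 1.42.0, no filter, 2 CPM in all 18 libraries or in 5 of each compartment, thinning to the smaller total of a pair, leaving out the 13 mitochondrial genes, complexes 69 to 74 or 17 to 24 alone, each complex left out, an adjusted p under 0.05 and a test against 2-fold. Leaving out complexes 70, 72 and 74 was added after the data had been seen. Sequences and coordinates are not used here, and some genes that these rules name are not reported here.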

Additional observations from a re-analysis of the deposited data

Results flagged for a closer look

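In groups of 9 libraries, 66 of 316 tested groups had an end value set apart from the other 8 by Dixon's 95% criterion, where chance alone sets apart about 1 in 20, or 15.8 groups. The values below are CPM unless another unit is given. In 38 of them the oocyte of complex 72 was the highest, and nearly all are genes of cumulus cells. There the 13 cumulus markers summed to 3452. Among its hormone, growth factor and signalling genes were FST (688), INHA (754.5), INHBA (822), IHH (150.5), TRIB2 (272), FSHR (51.3), AMHR2 (1.11), ID2 (47.8), HSD17B1 (189), FDXR (46.5), CYP11A1 (34.4) and RARRES2 (195). Its granulosa factors set apart were NR5A2 (47.0), GATA4 (33.2), GATA6 (53.5) and FOXL2 (21.97). Its matrix, cytoskeleton and junction genes were SMOC2 (141), VIM (629.9), SRGN (936), SERPINE2 (666), VCAN (300.5), COL6A2 (43.7) and GJA1 (97.0). Its metabolic genes were GSTA1 (257), ENO1 (1062), SLC2A3 (201), PGK1 (214.5), GPX1 (145), SLC38A5 (1.24) and APOA1 (13.8). The remaining genes of this oocyte were JUN (345), FOS (376), EGR1 (394), CCND2 (122), HBA (214), RPS6 (289.9) and H2AZ1 (26.0).

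The cumulus cells of complex 72 were highest for INHA (7308), NPR2 (122.9), ID2 (381), PGD (426) and HBA (573) and lowest for GUCY1B1 (10.4). Both libraries of this complex thus stood at the top for INHA, ID2 and HBA. Of the other oocytes, complex 17 was highest for KTN1 (574.5), complex 19 for MCM4 (816), complex 24 for ATP5F1B (137.5) and complex 70 for DAZL (229.6). Complex 71 was highest for TBPL2 (66.2), MSH5 (105.5) and SMAD6 (29.2) and lowest for ACADVL (25.2), and complex 24 was lowest for IGF1R (44.9). Of the other cumulus libraries, complex 19 was highest for TTC24 (0.265), complex 24 for GMPS (307) and FDXR (543), complex 69 for KIT (132), HMGCS1 (373) and PSMD1 (278), complex 71 for SAXO1 (0.192) and APOA1 (4066), complex 73 for ACCSL (3.19) and ZGLP1 (0.228), and complex 74 for NR3C2 (0.342), HSPH1 (235) and the number of genes above 2 CPM (12588 genes). SAXO1, TTC24, ZGLP1 and NR3C2 rest on a few counts in cumulus cells.

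The difference between oocyte and cumulus cells itself differed between BCB classes in DKK3, by 4.46 on the log2 scale (BCB positive minus negative), and in TRPS1, by 1.604. The first passed in each alternative run. The second was 1.86 in complexes 65 to 74 and 1.70 without complexes 70, 72 and 74, and passed in neither.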

How the results depend on the processing

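More genes were higher in oocytes than in cumulus cells in all alternatives run but no filter (7403 and 7609), and past 4-fold in all but the 3 other filters and libraries thinned to equal totals (3272 and 3307). In number, 10841 to 11507 genes differed in the fits with the same genes, 6 or more complexes and the edgeR test at 0.01 of no change. DESeq2 called 11695 genes, complexes 17 to 24 alone (3 pairs) 9733, the test against 2-fold 8352 and an adjusted p under 0.05 12068. Counts of genes that differed or passed 4-fold moved by more than 1.5 times only with the filter, which changes how many genes are tested. With more than 2 CPM in all 18 libraries 7154 genes differed (3612 higher in oocytes and 3542 in cumulus cells) and 2649 passed 4-fold (1286 and 1363). With 5 libraries of each compartment 3438 passed 4-fold (1635 and 1803), and with no filter 10127 did, 5298 of them higher in cumulus cells. Library totals alone moved the median log2 fold change of all genes by 0.21 and no filter by -0.51. Dependence on BCB class was called in 14 genes at an adjusted p under 0.05, 236 with library totals alone, 258 with no replicate block, 165 in complexes 65 to 74, 198 with DESeq2 and 1 without complexes 70, 72 and 74, and the cause was not tested. The difference in genes with at least 1 count was -451 at equal totals, 1039 without complexes 70, 72 and 74 (exact permutation p = 0.03125, the smallest that 6 pairs allow) and 625 to 1084 with 1 complex left out, the highest without complex 74. Without the replicate block 11507 genes differed, LAMB1 and HSPA1A lost their call, and no other named gene did. In complexes 17 to 24 alone LAMB1 (0.68), EHMT2 (0.30), SMAD6 (-1.09), CTNNB1 (-0.77), DGAT1 (0.61), H2AC21 (0.64) and PSMD2 (-0.11) also fell short. Signs turned only in genes near 0. FOXO1 stood at 0.0069 with DESeq2 size factors and 0.0068 with DESeq2, 0.16 with library totals, 0.026 in complexes 69 to 74, 0.12 without complexes 70, 72 and 74 and -0.17 to 0.019 with 1 complex left out. KTN1 stood at 0.13 with library totals and 0.091 in complexes 69 to 74. ARF1 stood at -0.040 with 2 CPM in all libraries, -0.072 at equal totals, -0.028 in complexes 69 to 74 and -0.011 to 0.073 with 1 left out. GMPS stood at 0.034 with DESeq2 size factors, 0.033 with DESeq2, 0.18 with library totals, 0.0043 with no filter, 0.074 in complexes 17 to 24 and -0.066 to 0.0018 with 1 left out. The smallest cumulus library, with 3585944 counts, sets the limit for genes near 0 there.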
